A study of Mus musculus with 11 samples.

Results

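The calcium handling genes of cardiomyocytes were taken here as 10 genes of the 55513 in the count table, picked by name for their part in excitation-contraction coupling and calcium cycling. They were Cacna1c, Cacnb2, Ryr2, Casq2, Trdn, Jph2, Atp2a2, Pln, Slc8a1 and Camk2d, and all 10 passed the filter on low counts in each comparison. Poly(A) RNA was sequenced from the hearts of 11 female C57BL/6J mice aged 8 weeks, on day 3 after the operation. Of these, 4 had a permanent ligation of the left anterior descending coronary artery, which causes a myocardial infarction (MI), and received DMSO from a subcutaneous osmotic minipump (MI DMSO). In another 4 the same ligation was followed by GI254023X, an inhibitor of the sheddase ADAM10, at 100 mg/kg, dissolved in DMSO and delivered the same way (MI A10i). The remaining 3 mice were sham operated and given DMSO. Infarct and border zone were excised together after ligation and healthy heart tissue after sham surgery, so each value is an average over all cells in that piece, and fewer cardiomyocytes and less RNA per cardiomyocyte cannot be told apart.

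With each heartbeat the membrane depolarizes, L-type channels admit a little calcium, and that calcium opens ryanodine receptors in the facing sarcoplasmic reticulum, which release the larger amount that drives contraction. Relaxation follows as the pump SERCA2a returns calcium to the reticulum, under the brake of phospholamban, and the sodium-calcium exchanger carries the rest out of the cell. Less of the pump is a textbook feature of failing myocardium, and the multifunctional kinase CaMKII delta acts on the channel, the ryanodine receptor and phospholamban.

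The promoters of the genes that carry the results are shown first, from RefSeq on GRCm38.p6. The table used held 12 promoter windows of 300 bases for 8 of the 10 genes, and none for Atp2a2 and Trdn. The 250 bases before the annotated start are printed for Ryr2 and Pln, which fell in the DMSO hearts against sham, for Slc8a1, the 1 gene of the 10 with positive log2 fold changes against sham, and for Casq2, whose window held the one match to the MEF2 consensus of cardiac muscle genes. Each reads 5′ to 3′ on the strand of its gene, with motif matches in capitals.
Ryr2: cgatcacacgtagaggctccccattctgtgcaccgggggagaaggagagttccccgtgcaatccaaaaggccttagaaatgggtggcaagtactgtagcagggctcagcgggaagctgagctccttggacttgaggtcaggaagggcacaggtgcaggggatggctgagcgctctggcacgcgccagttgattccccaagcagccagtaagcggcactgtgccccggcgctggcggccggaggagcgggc
Casq2: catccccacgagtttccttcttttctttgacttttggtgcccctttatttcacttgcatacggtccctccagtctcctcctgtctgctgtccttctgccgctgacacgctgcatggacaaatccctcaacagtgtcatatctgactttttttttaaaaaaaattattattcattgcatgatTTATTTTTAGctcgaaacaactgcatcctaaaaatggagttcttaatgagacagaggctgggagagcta
Pln: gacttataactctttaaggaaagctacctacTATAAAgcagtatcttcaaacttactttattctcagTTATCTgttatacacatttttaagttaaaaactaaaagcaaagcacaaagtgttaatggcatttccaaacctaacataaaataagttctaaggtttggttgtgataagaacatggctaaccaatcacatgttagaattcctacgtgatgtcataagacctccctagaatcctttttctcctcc
Slc8a1: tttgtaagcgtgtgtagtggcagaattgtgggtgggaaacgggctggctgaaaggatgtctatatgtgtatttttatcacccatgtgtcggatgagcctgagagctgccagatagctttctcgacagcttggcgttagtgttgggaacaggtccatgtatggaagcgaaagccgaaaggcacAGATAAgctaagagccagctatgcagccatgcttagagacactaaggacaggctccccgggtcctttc
The stretches lie at chr13:12106946-12107195 (minus strand), chr3:102086165-102086414 (plus), chr10:53337436-53337685 (plus) and chr17:81738388-81738637 (minus). In the Casq2 window the MEF2 consensus lies on the opposite strand from base 182, so that the capitals there show its reverse complement. The Pln window has TATAAA at base 32 and AGATAA on the opposite strand at base 68, so that the capitals there show its reverse complement. Slc8a1 has AGATAA at base 183, no 2 of these matches overlap, and the Ryr2 window holds none of the 6 motifs searched on both strands. Of 32851 mouse promoter windows of the same length, 1.86% held the MEF2 consensus, 13.6% TATAAA and 11.2% AGATAA. The other motifs, found in no window of the 10 genes, were the CArG box (1.63% of all windows), CATTCC (14.7%) and CACGTG (7.15%). A match describes the letters only and is not a measured binding site.

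Libraries held 21702659 to 29511782 counts, and the least counted of the 10 genes, Cacnb2, had 1364 to 2545 reads per library. The coefficient of variation of the 10 genes had a median of 1.69% over the sham mice, 17.3% over DMSO and 11.4% over A10i mice. Together the 10 genes took 2.79% to 2.83% of all counts in sham hearts, 1.54% to 2.09% in DMSO and 2.13% to 2.53% in A10i hearts, with no overlap between the 3 groups. Of this sum Atp2a2 alone held a mean of 60.5% in sham, 51.8% in DMSO and 58.5% in A10i hearts. Pln held 21.4%, 23.4% and 20.5%, so the sum mostly follows Atp2a2 and Pln. Taken singly, only Atp2a2 of the 10 had A10i and DMSO values that did not overlap, as had 8.14% of all 16793 genes tested. Values below are counts per 1e6 counts (CPM) of library sizes scaled by trimmed mean of M values (TMM). A difference counts as called when edgeR's quasi-likelihood test gave a Benjamini-Hochberg adjusted p under 0.01 over all genes tested. Both ligated groups were set against the same 3 sham hearts, so their comparisons with sham are not independent of each other.

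Per kilobase of exon, the sham hearts held most RNA of the reuptake pair. Atp2a2 stood at 3088 ± 44.0 CPM per kilobase (SD, n = 3) and Pln at 2409 ± 40.6. Casq2 followed at 347 ± 5.85, Jph2 at 157 ± 1.03 and Ryr2 at 87.8 ± 6.55. Below them came Trdn at 42.8 ± 1.47, Slc8a1 at 24.6 ± 0.410 and Cacna1c at 17.1 ± 0.645. Camk2d, at 7.47 ± 0.0745, and Cacnb2, at 7.09 ± 0.283, were lowest, and in sham hearts no neighbours in this order overlapped in range. Exon length here joins all annotated exons of a gene and can exceed that of a single transcript, so the order between genes depends on the annotation. The order by group mean was the same in both ligated groups, but Atp2a2 and Pln overlapped there, at 1533 ± 324 and 1511 ± 282 CPM per kilobase (SD, n = 4) in DMSO hearts and 2222 ± 287 and 1724 ± 319 in A10i hearts. In DMSO hearts Trdn overlapped Slc8a1 and Camk2d overlapped Cacnb2 as well.

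**Figure D1:**
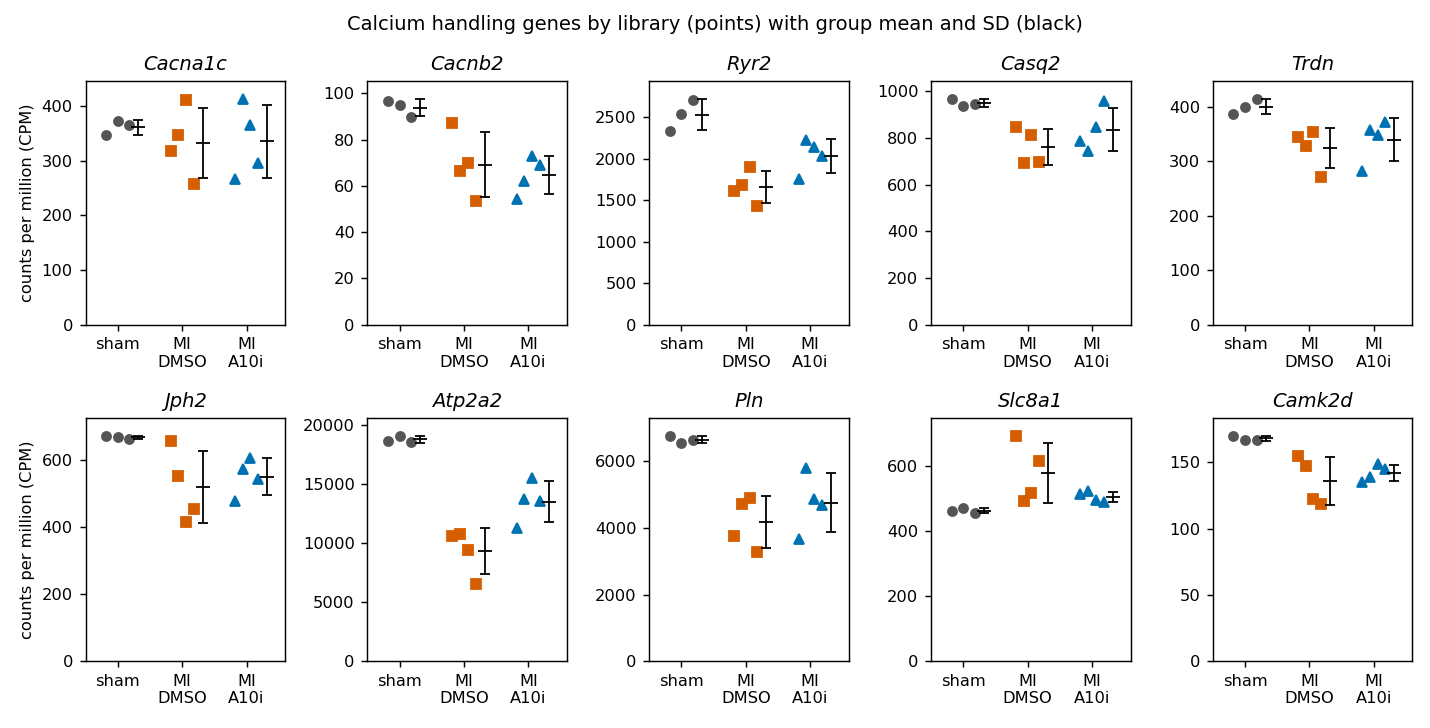
Level of each calcium handling gene in CPM (TMM-scaled, linear axes from 0), 1 point per mouse, with the mean and SD of each group in black. The Atp2a2 points form 3 separate bands, with sham at 18573 to 19079, A10i at 11252 to 15508 and DMSO at 6525 to 10789 CPM, while the Cacna1c groups overlap.

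After ligation with DMSO, 3 of the 10 genes fell against sham and none rose. These were Atp2a2, Ryr2 and Pln, that is the calcium pump, the release channel and the regulator of the pump. Across all 17119 genes tested, 9.6% were called lower and 12.9% higher. The log2 fold change was negative for 9 of the 10, with a median of -0.34 over the 10 genes and 0.00 over all genes, and Slc8a1 was the exception. DMSO and sham values did not overlap for 9 genes, against 48.7% of all genes tested. With A10i, 1 of the 10 fell against sham, Cacnb2, and none rose, while 9.09% of 17004 genes were called lower and 13.8% higher. There 9 of the 10 were again negative, with a median of -0.26 against -0.01 over all genes, and 8 did not overlap sham, against 48.2% of all genes. With library size alone, which moved the median gene up by 0.21 with DMSO and by 0.18 with A10i, 1 of the 10 was called lower and 1 higher in each comparison, and of all genes 708 were lower and 3330 higher with DMSO in place of 1643 and 2214. Leaving out any 1 sham mouse cut the calls over all genes. Then 565 to 601 were lower with DMSO in place of 1643, and 543 to 602 with A10i in place of 1546. Calls given below as lost without a sham mouse are to be read beside this.

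Cacna1c (ENSMUSG00000051331, chromosome 6, 118587240 to 119196418, minus strand, GRCm38) encodes the pore of the L-type channel. It stood at 346, 373 and 365 CPM in sham mice S1, S2 and S3, at 317, 347, 411 and 257 in DMSO mice A105, A127, A128 and A129, and at 267, 413, 365 and 296 in A10i mice A116, A117, A119 and A120. Both ligated groups spread to either side of sham. The log2 fold change against sham was -0.12 with DMSO (SE 0.14, edgeR adjusted p = 0.53) and -0.11 with A10i (SE 0.14, adjusted p = 0.58), and it turned to 0.08 and 0.07 when library size alone set the scale.

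Cacnb2 (ENSMUSG00000057914, chromosome 2, 14603088 to 14987908, plus strand) encodes the beta subunit that brings the pore to the membrane. Its values were 96.7, 95.2 and 89.6 CPM in sham, 87.3, 66.3, 69.9 and 53.5 in DMSO, and 54.4, 62.1, 73.1 and 68.9 in A10i mice, in the same order of animals. Every ligated heart lay under the lowest sham heart, A105 by the smallest margin. Cacnb2 fell with A10i by 0.53 on the log2 scale (SE 0.09, edgeR adjusted p = 0.0018), whereas with DMSO its log2 fold change was -0.44 (SE 0.14, adjusted p = 0.029). Without DMSO mouse A105 the DMSO change was -0.59 with an adjusted p of 0.0032 in edgeR, and the A10i call was lost without sham mouse S1 (adjusted p = 0.012) or S2 (0.011).

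Ryr2 (ENSMUSG00000021313, chromosome 13, 11553102 to 12106945, minus strand) encodes the release channel itself. It stood at 2332, 2542 and 2709 CPM in sham, at 1615, 1680, 1897 and 1425 in DMSO, and at 1753, 2220, 2142 and 2029 in A10i hearts. All ligated hearts were under all sham hearts, and the groups overlapped only between DMSO mouse A128 and A10i mouse A116. Ryr2 fell with DMSO by 0.62 on the log2 scale (SE 0.13, edgeR adjusted p = 0.0046), and its log2 fold change with A10i was -0.31 (SE 0.11, adjusted p = 0.054). The call with DMSO was lost without A127 (edgeR adjusted p = 0.013) and without sham mouse S1, S2 or S3 (0.017 to 0.032).

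None of the partners of the release channel was called. Casq2 (ENSMUSG00000027861, chromosome 3, 102086415 to 102146514, plus strand), the calcium-binding protein of the reticulum lumen, stood at 966, 935 and 944 CPM in sham, at 845, 691, 813 and 695 in DMSO and at 789, 746, 847 and 959 in A10i hearts. A10i mouse A120 reached the sham range and the others did not. Its log2 fold change was -0.32 with DMSO (SE 0.11, edgeR adjusted p = 0.043) and -0.18 with A10i (SE 0.10, adjusted p = 0.20).

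Trdn (ENSMUSG00000019787, chromosome 10, 33080554 to 33476709, plus strand) encodes triadin, which ties calsequestrin to the channel. It measured 387, 400 and 414 CPM in sham, 345, 329, 354 and 272 in DMSO and 282, 357, 348 and 373 in A10i hearts, all ligated hearts being under all sham hearts. Log2 fold changes were -0.30 with DMSO (SE 0.11, edgeR adjusted p = 0.049) and -0.23 with A10i (SE 0.10, adjusted p = 0.096). Jph2 (ENSMUSG00000017817, chromosome 2, 163336242 to 163397993, minus strand) encodes junctophilin 2, which holds the reticulum close to the cell membrane. It measured 672, 667 and 663 CPM in sham, 656, 551, 414 and 454 in DMSO and 477, 573, 607 and 542 in A10i hearts. DMSO mouse A105 was just under the sham range and the other ligated hearts lay further below. The log2 fold change of -0.37 with DMSO (SE 0.15, edgeR adjusted p = 0.079) passed the threshold without A105, at -0.51 (adjusted p = 0.0094), and with A10i it was -0.28 (SE 0.10, adjusted p = 0.045).

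The pump had the largest log2 fold change of the 10 genes for DMSO against sham and for A10i against DMSO, and Cacnb2 and Pln had larger ones for A10i against sham. Atp2a2 (ENSMUSG00000029467, chromosome 5, 122453513 to 122502225, minus strand) encodes SERCA2, whose cardiac isoform SERCA2a refills the reticulum. It stood at 18676, 19079 and 18573 CPM in sham, at 10602, 10789, 9383 and 6525 in DMSO and at 11252, 13695, 15508 and 13592 in A10i hearts. Each group lay apart from the others, and the lowest A10i heart was just above the highest DMSO heart. Atp2a2 fell with DMSO by 1.01 on the log2 scale (SE 0.18, edgeR adjusted p = 0.0021), to 0.495 of the sham level, and the call was lost without any 1 of the 3 sham mice (adjusted p = 0.013 to 0.014). With A10i the log2 fold change against sham was -0.47 (SE 0.13, edgeR adjusted p = 0.017), called without A116 (-0.39, adjusted p = 0.00044) and by DESeq2 (adjusted p = 5.33e-05).

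Pln (ENSMUSG00000038583, chromosome 10, 53337667 to 53345987, plus strand) encodes phospholamban, which slows the pump until it is phosphorylated. It stood at 6762, 6538 and 6641 CPM in sham, at 3773, 4727, 4905 and 3269 in DMSO and at 3663, 5811, 4853 and 4700 in A10i hearts. Sham was highest throughout and the ligated groups overlapped. Pln fell with DMSO by 0.68 on the log2 scale (SE 0.16, edgeR adjusted p = 0.0080), a call that was lost without A105, A127 or any sham mouse (adjusted p = 0.013 to 0.039). With A10i its log2 fold change was -0.48 (SE 0.15, edgeR adjusted p = 0.026), called without A116 (-0.37, adjusted p = 0.0024) or A117 (-0.59, 0.0095). Of 2759 exon bases of Pln, 1785 are shared with transcripts of the opposite strand, including Cep85l, and the strand setting of the counting is not stated, so part of the reads may belong to those. The same holds for 83 bases of Atp2a2, 304 of Slc8a1 and 968 of Cacnb2.

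Slc8a1 (ENSMUSG00000054640, chromosome 17, 81373105 to 81738377, minus strand), the sodium-calcium exchanger NCX1, was the 1 gene above sham. It stood at 462, 471 and 456 CPM in sham, at 694, 495, 518 and 617 in DMSO and at 514, 524, 496 and 491 in A10i hearts. Every ligated heart exceeded every sham heart, A105 and A129 by the widest margin. Log2 fold changes were 0.32 with DMSO (SE 0.13, edgeR adjusted p = 0.074) and 0.13 with A10i (SE 0.08, adjusted p = 0.20), neither called. With library size alone both were called, at 0.53 (edgeR adjusted p = 0.0062) and 0.32 (0.0059).

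Camk2d (ENSMUSG00000053819, chromosome 3, 126596302 to 126846326, plus strand) encodes CaMKII delta. It measured 170, 167 and 167 CPM in sham, 155, 147, 122 and 118.5 in DMSO and 135, 139, 148 and 145 in A10i hearts. No ligated heart reached the sham range. Log2 fold changes were -0.31 with DMSO (SE 0.11, edgeR adjusted p = 0.040) and -0.24 with A10i (SE 0.06, adjusted p = 0.014), the second of which was called without A116 (-0.22, adjusted p = 0.0065) and by DESeq2 (0.00061).

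**Figure D2:**
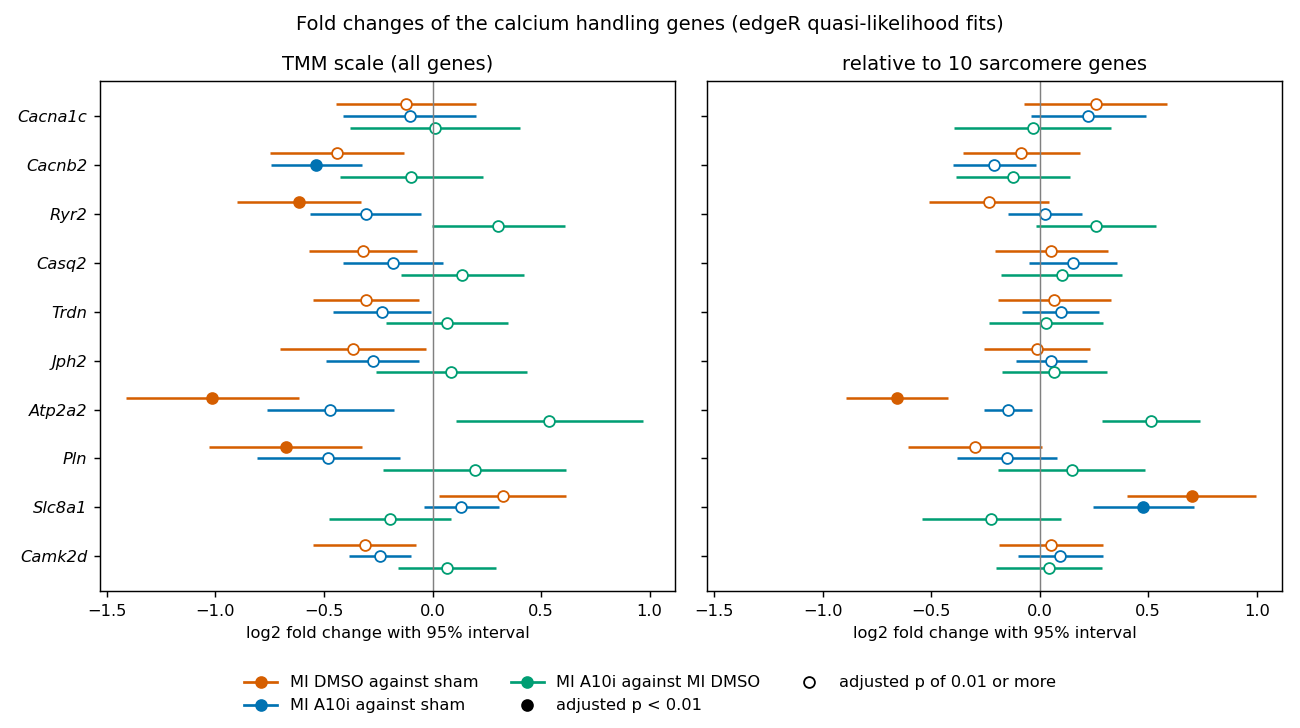
Log2 fold changes of the 10 genes with 95% intervals in 3 comparisons (colours), on the TMM scale at left and relative to 10 sarcomere genes at right; filled points have an edgeR adjusted p under 0.01. At left Atp2a2, Ryr2 and Pln are filled for DMSO and Cacnb2 for A10i, while at right Atp2a2 at -0.66 and Slc8a1 at 0.70 are filled for DMSO and Slc8a1 at 0.48 for A10i.

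Inhibition of ADAM10 after ligation was compared with DMSO after ligation in 4 against 4 hearts. Here 0 of the 10 genes were called by edgeR, as were 0 of all 16793 genes tested (0%). DESeq2 called 0 of the 10 as well, and 104 of all genes higher and 123 lower. At an unadjusted p under 0.05 there was 1 of the 10, Atp2a2, against 13.8% of all genes. The A10i hearts lay above DMSO in mean log2 level for 8 of the 10, with a median difference of 0.08 over the 10 genes and 0.00 over all genes.

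Atp2a2 was also the 1 gene of the 10 whose A10i and DMSO values did not overlap, against 8.14% of all genes tested. Its log2 fold change was 0.54 (SE 0.19, 95% interval 0.11 to 0.97), which is 1.45 times the DMSO level, with an edgeR p of 0.019 and an adjusted p of 0.26. Over 14 alternatives it stayed positive, at 0.40 to 0.62, with adjusted p of 0.064 to 0.53. The fold change rests on the same DMSO hearts as the fall against sham, so it is no separate evidence of it. Ryr2 came next at 0.30 (SE 0.14, 95% interval -0.0042 to 0.61, edgeR adjusted p = 0.37), with A116 at 1753 CPM within the DMSO range.

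The other genes differed less between the ligated groups. Pln had a log2 fold change of 0.19 (95% interval -0.23 to 0.62), Casq2 of 0.14 (-0.15 to 0.42) and Jph2 of 0.09 (-0.26 to 0.43). For Trdn the value was 0.07 (-0.21 to 0.35), for Camk2d 0.07 (-0.16 to 0.29) and for Cacna1c 0.01 (-0.38 to 0.40). Slc8a1, at -0.20 (-0.48 to 0.08), and Cacnb2, at -0.10 (-0.42 to 0.23), were the 2 with a negative sign. These intervals leave room for changes of about the size seen against sham, so the 4 hearts a group cannot show that such genes were alike.

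Since an infarct loses myocytes and gains other cells, the 10 genes were also set against 10 sarcomere genes of the same library (Tnnt2, Tnni3, Tnnc1, Myl2, Myl3, Actc1, Mybpc3, Actn2, Ttn and Myom1). On this scale the median of all genes shifted up by 0.38 with DMSO and 0.33 with A10i against sham, so a gene with no shift on it kept step with the sarcomere and not with the tissue. Atp2a2 was lower than the sarcomere genes with DMSO, by 0.66 on the log2 scale (SE 0.11, edgeR adjusted p = 0.00046), and Slc8a1 was higher, by 0.70 (SE 0.14, adjusted p = 0.0014). That is 1 of the 10 called in each direction, where 1.66% of all genes were called lower and 23.8% higher. With A10i, Slc8a1 was called higher, at 0.48 (SE 0.11, edgeR adjusted p = 0.0053), Atp2a2 stood at -0.15 (SE 0.05, adjusted p = 0.039), and 0 of the 10 were called lower, against 21.7% of all genes higher and 1.14% lower. Between the ligated groups 0 of the 10 were called by edgeR or DESeq2, against 0.00595% of all genes, which is the single gene Atf3, named after its value was seen. There Atp2a2 was at 0.51 (SE 0.10, 95% interval 0.29 to 0.74, edgeR adjusted p = 0.21), and it was the 1 of the 10 at an unadjusted p under 0.05, against 6.94% of all genes.

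Relative to sarcomere genes, with the sham mean at 0 on the log2 scale, Atp2a2 was at -0.70, -0.51, -0.52 and -0.94 in the DMSO hearts and at -0.17, -0.10, -0.11 and -0.20 in the A10i hearts. The ligated groups were apart by a wider margin than on the tissue scale. There the nearest hearts were A116 at 13.458 and A127 at 13.397 log2 CPM. Both ligated groups lay under the sham range of -0.05 to 0.04 relative to the sarcomere genes. Slc8a1 was at 0.72, 0.38, 0.64 and 1.00 in DMSO and at 0.72, 0.53, 0.27 and 0.35 in A10i hearts. Both groups were above sham, whose highest value was 0.04, and they overlapped each other. Cacna1c, Casq2, Trdn, Jph2 and Camk2d overlapped the sham range in both ligated groups, with log2 fold changes of -0.01 to 0.26. Ryr2 was at -0.23 with DMSO (SE 0.13) and at 0.02 with A10i (SE 0.08), and Pln at -0.30 (SE 0.14) and -0.15 (SE 0.10), none of them called. Cacnb2 overlapped sham with DMSO, at -0.09 (SE 0.13), and lay below it with A10i, at -0.21 (SE 0.09, edgeR adjusted p = 0.073).

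The choice of reference mattered here. The 10 sarcomere genes did not move as a block, with log2 fold changes of -0.83 (Myl2) to 0.19 (Actn2) for DMSO against sham, Myl2 and Mybpc3 being called lower. Against 8 other cardiomyocyte genes led by Myh6, of which Myh6, Tcap, Ckm and Myoz2 fell themselves, the DMSO value of Atp2a2 was -0.27 (edgeR adjusted p = 0.023) and no longer called, and its A10i value turned to 0.10. Ryr2 and Pln also turned positive there, at 0.17 and 0.10 with DMSO, as did Cacnb2, at 0.31 with DMSO and 0.036 with A10i. Slc8a1 remained called under that reference, at 1.11 with DMSO and 0.73 with A10i, and Cacna1c, Casq2 and Trdn were called higher beside it in both comparisons. With the sham mean at 0, the log2 mean of that reference was -1.11 to -0.50 in DMSO and -0.87 to -0.39 in A10i hearts. The sarcomere genes stood at -0.58 to -0.13 and -0.57 to -0.17, so every gene shifts up further under the second reference. The share of all genes called under it is not given here, so these calls cannot be set against it. The sarcomere-scale call of Slc8a1 with DMSO was lost without sham mouse S3 (0.67, edgeR adjusted p = 0.011). With A10i it was lost without A117 (0.46, edgeR adjusted p = 0.012) and without sham mouse S1, S2 or S3 (adjusted p = 0.022 to 0.032), and without A117 both Pln (-0.27, 0.0018) and Atp2a2 (-0.16, 0.0091) were called lower.

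**Figure D3:**
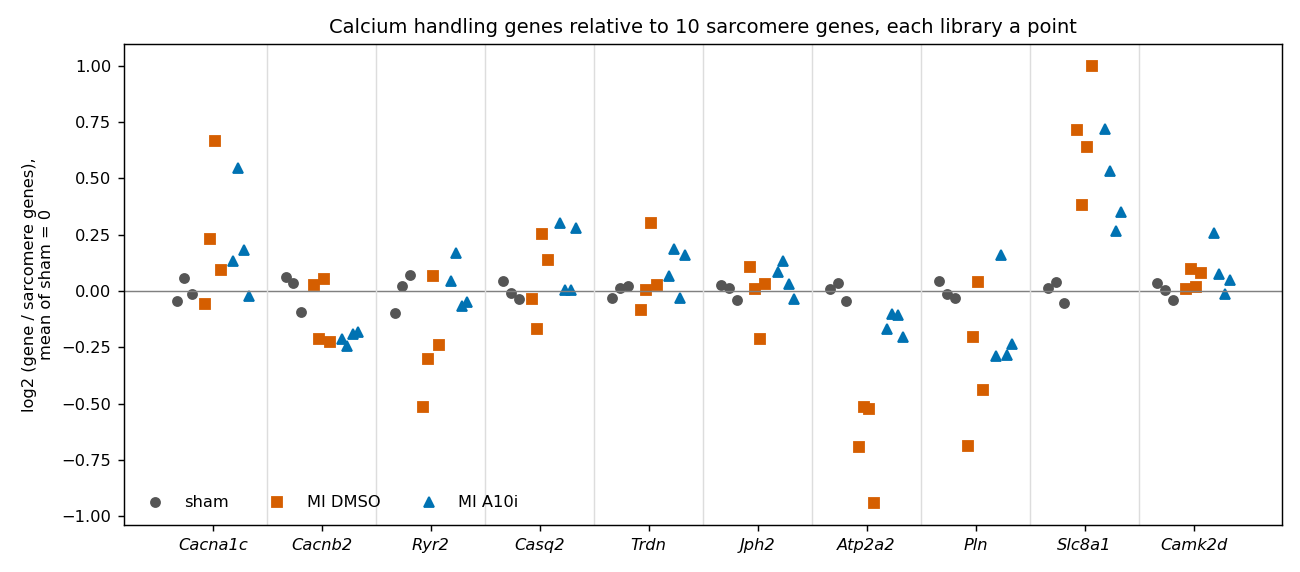
Log2 level of each gene relative to the mean of 10 sarcomere genes in the same library, with the mean of sham at 0; each point is a mouse and colours mark the groups. DMSO hearts lie at -0.94 to -0.51 for Atp2a2, apart from A10i at -0.20 to -0.10, and every ligated heart is above sham for Slc8a1.

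Pump and exchanger were also set against each other per kilobase of exon, a ratio picked after its values were seen and given as a description. By this measure, whose size depends on the annotated exon lengths, sham hearts had 125 ± 0.496 times as much Atp2a2 as Slc8a1 (SD, n = 3). DMSO hearts had 50.9 ± 14.7 times (n = 4) and A10i hearts 82.7 ± 12.0 times (n = 4). By animal it was 125, 125 and 126 in sham, 47.2, 67.5, 56.0 and 32.7 in DMSO and 67.7, 80.8, 96.7 and 85.5 in A10i mice. The DMSO and A10i ranges nearly touched but did not overlap. The ratio of Pln to Atp2a2 had means of 0.781 ± 0.0224 (sham), 1.00 ± 0.165 (DMSO) and 0.776 ± 0.110 (A10i), and the groups overlapped. Trdn to Ryr2 was 0.489 ± 0.0201, 0.606 ± 0.0364 and 0.514 ± 0.0344 in the same order, with DMSO above all sham and A10i hearts. Casq2 to Ryr2 was 3.67 to 4.36 in sham, 4.33 to 5.50 in DMSO and 3.53 to 4.97 in A10i hearts. Jph2 to Cacna1c was 8.92 to 9.66, 5.02 to 10.3 and 6.92 to 9.12, so both ratios overlapped between all groups. Sln to Pln was higher in all ligated hearts than in any sham heart, and the ligated groups overlapped. How often ratios of other gene pairs lie apart was not measured, so all these ratios are descriptions.

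**Figure D4:**
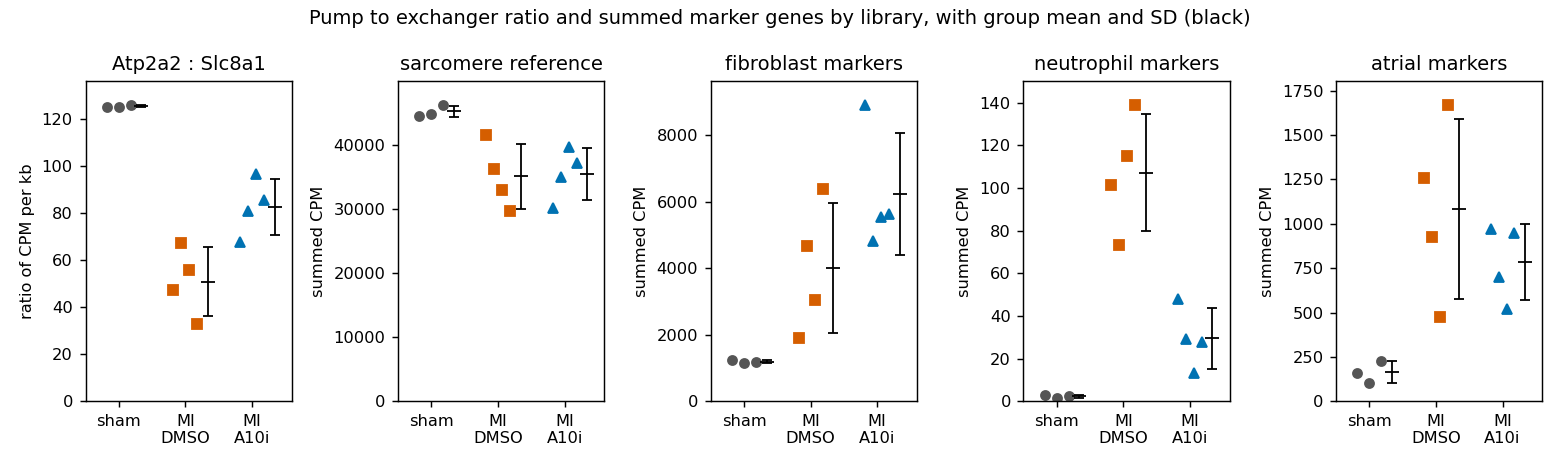
Ratio of Atp2a2 to Slc8a1 (CPM per kilobase) and summed CPM of the sarcomere, fibroblast, neutrophil and atrial marker genes, 1 point per mouse with group mean and SD in black, linear axes from 0. The ratio is tight in sham at 125 to 126 and lower in all ligated hearts, and neutrophil markers are at 73.4 to 139 CPM with DMSO and 13.1 to 48.0 with A10i.

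Markers of other cells moved with the groups. Sarcomere genes summed to 44591 to 46281 CPM in sham, 29759 to 41532 in DMSO and 30152 to 39626 in A10i hearts. Fibroblast markers summed to 1150 to 1236 CPM in sham, 1908 to 6392 in DMSO and 4824 to 8916 in A10i hearts, with 4 of 8 called higher with DMSO and 7 of 8 with A10i. Of 7 macrophage markers 5 rose with DMSO and 7 with A10i, and of 6 neutrophil markers, which summed to 1.68 to 2.99 CPM in sham, 6 and 5 rose. Of 6 endothelial markers 1 fell with DMSO and 0 with A10i, and no red cell marker was called. Mitochondrial transcripts took 21.5% to 22.2% of counts in sham, 14.8% to 18.6% in DMSO and 15.7% to 17.9% in A10i hearts. The part of these shifts in the falls of Atp2a2, Ryr2, Pln and Cacnb2 on the tissue scale was not tested. Between the ligated groups the sarcomere sums overlapped, as did the fibroblast sums, while the neutrophil sums did not. The 6 smooth muscle and pericyte markers summed to 960.3 to 1019 CPM in sham and 659 to 798 in DMSO hearts. In A10i hearts they summed to 843 to 898. The sums were apart in each group and in the same order as Atp2a2, but Rgs5 made up the largest part of them. Its means were 709, 368 and 442 CPM, while Tagln, Acta2 and Cnn1 had higher means in both ligated groups than in sham. Of the 6, 1 was called higher and 1 lower with DMSO, and 2 and 1 with A10i. The median log2 fold changes of the list were 0.12 and 0.52. The part of these markers in the Atp2a2 values was not tested. The atrial list summed to 104.8 to 227, 475 to 1671 and 518 to 970 CPM, mostly Nppa, with Bmp10 at 0 in every sham and DMSO heart.

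Beyond these 10 genes, 86 others of calcium handling were followed in 7 lists by role. Of 82 tested with DMSO against sham, 9 were called higher and 12 lower, where 12.9% and 9.6% of all genes were. With A10i it was 11 and 11 of 81, where 13.8% and 9.09% of all genes were called. The counts by list below are to be read beside these shares. The median log2 fold changes of the listed genes, -0.02 and -0.01, were close to those of all genes. Ryr1, Jph3, Mrln and Slc8a3 had at most 19 counts in any library and could not be tested.

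Of 14 channel subunits and inhibitors 1 rose and 1 fell with DMSO, and 2 and 2 with A10i. Cacnb4, another beta subunit, fell by 1.16 with DMSO (edgeR adjusted p = 0.0017) and by 1.06 with A10i (0.0011) on the log2 scale. Gem, a small GTPase that holds back L-type channels, rose by 0.87 (edgeR adjusted p = 0.0078) and 1.03 (0.0014). Of the release unit and dyad, 3 rose and 3 fell of 16 with DMSO, and 3 and 4 of 15 with A10i. Hrc, the histidine-rich calcium-binding protein of the reticulum, fell by 1.07 (edgeR adjusted p = 0.0021) and 0.75 (0.0018), from 1028 to 1062 CPM in sham to 318 to 595 in DMSO and 469 to 703 in A10i hearts. Bin1, which shapes transverse tubules, rose by 1.00 (edgeR adjusted p = 0.0027) and 0.90 (0.0017). These 4 genes kept their direction relative to the sarcomere genes and with library size alone, though Cacnb4 was not called on the sarcomere scale (edgeR adjusted p = 0.017 with DMSO and 0.012 with A10i). Relative to the second cardiomyocyte set, Cacnb4 stood at -0.41 with DMSO, and Hrc at -0.33 with DMSO and -0.19 with A10i, none of them called.

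Of 8 other genes of the pump and its regulators, 1 was called lower with DMSO and 0 with A10i. That was Atp2a3, the SERCA3 gene of other cell types, which fell by 0.55 (edgeR adjusted p = 0.0029), turned positive (0.22) relative to the second cardiomyocyte set, and stood at -0.29 with A10i (0.032). Its call with DMSO was lost with library size alone (edgeR adjusted p = 0.026). Sln, the atrial relative of phospholamban, was at 0.15 to 2.26 CPM in sham, 2.43 to 6.12 in DMSO and 2.85 to 11.2 in A10i hearts, and its log2 fold changes of 1.98 (SE 0.67) and 2.77 (SE 0.72) did not pass (edgeR adjusted p = 0.043 and 0.016). The atrial marker Myl7 was at 2.598 to 8.59 CPM in sham, 3.86 to 22.6 in DMSO and 13.7 to 35.4 in A10i hearts, and the part of atrial tissue in the Sln values was not tested. Strit1, the peptide DWORF that opposes phospholamban, was at 3.46 to 5.16 CPM in sham, 1.45 to 2.81 in DMSO and 2.06 to 3.84 in A10i hearts, with log2 fold changes of -0.95 (edgeR adjusted p = 0.014) and -0.65 (0.046).

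Of 17 genes of calmodulin, kinases and phosphatase signalling, 3 rose and 2 fell with DMSO, and 3 and 3 with A10i. Rcan1, which encodes an inhibitor of calcineurin, rose from 62.6 to 65.2 CPM in sham to 217 to 259 with DMSO and 108 to 178 with A10i, that is by 1.88 (SE 0.10, edgeR adjusted p = 1.07e-05) and 1.17 (SE 0.15, 0.00059) on the log2 scale. Camk2b, a sister of Camk2d, fell by 1.18 (edgeR adjusted p = 0.00029) and 0.73 (0.0023). Relative to the sarcomere genes Camk2b was called with DMSO (-0.81, edgeR adjusted p = 0.0029) but not with A10i (-0.40, 0.046). Against the second cardiomyocyte set it stood at -0.41 and -0.16, neither called. Of 8 genes of store-operated entry and inositol trisphosphate receptors, 1 rose and 3 fell with DMSO, and 1 and 1 with A10i. Orai2, a store-operated channel subunit, rose by 1.44 (edgeR adjusted p = 0.0019) and 1.19 (0.0018). Of the receptors, Itpr1 fell by 0.42 (edgeR adjusted p = 0.0067) and 0.47 (0.00047), and Itpr2 fell with DMSO by 0.54 (0.0026) and stood at -0.17 with A10i. Of 9 genes of mitochondrial calcium uptake 1 rose and 1 fell with DMSO. Mcub, the dominant-negative subunit of the uniporter, rose by 1.89 (edgeR adjusted p = 0.00044) and 1.77 (0.00035) with A10i, and Letm1, an ion exchanger of the inner membrane, fell with DMSO by 0.42 (0.0071). With DMSO, Itpr1, Itpr2 and Letm1 turned positive relative to the second set of cardiomyocyte genes, at 0.37, 0.26 and 0.35. Itpr1 did so with A10i too, at 0.13. Relative to the sarcomere genes these genes stood at -0.03, -0.14 and -0.05 with DMSO, and Itpr1 at -0.12 with A10i, none called. With library size alone the DMSO calls were lost (edgeR adjusted p = 0.12, 0.057 and 0.032), as was the A10i call of Itpr1 (0.018).

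Between A10i and DMSO, 0 of 80 of these genes tested were called by edgeR, and 14 had an unadjusted p under 0.05, where 13.8% of all genes did. Rcan1 was at -0.71 on the log2 scale (SE 0.14, edgeR adjusted p = 0.093), lower in all 4 A10i hearts than in any DMSO heart. DESeq2 called it on the TMM scale (adjusted p = 0.00069) but not relative to the sarcomere genes (0.091). With no filter on low counts edgeR called it on both scales (adjusted p = 0.0094 and 0.0048), so the call depended on the test, scale and filter. Itpr2 was at 0.36 (SE 0.09, edgeR adjusted p = 0.15) and Camk2b at 0.44 (SE 0.17, 0.27).

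**Figure D5:**
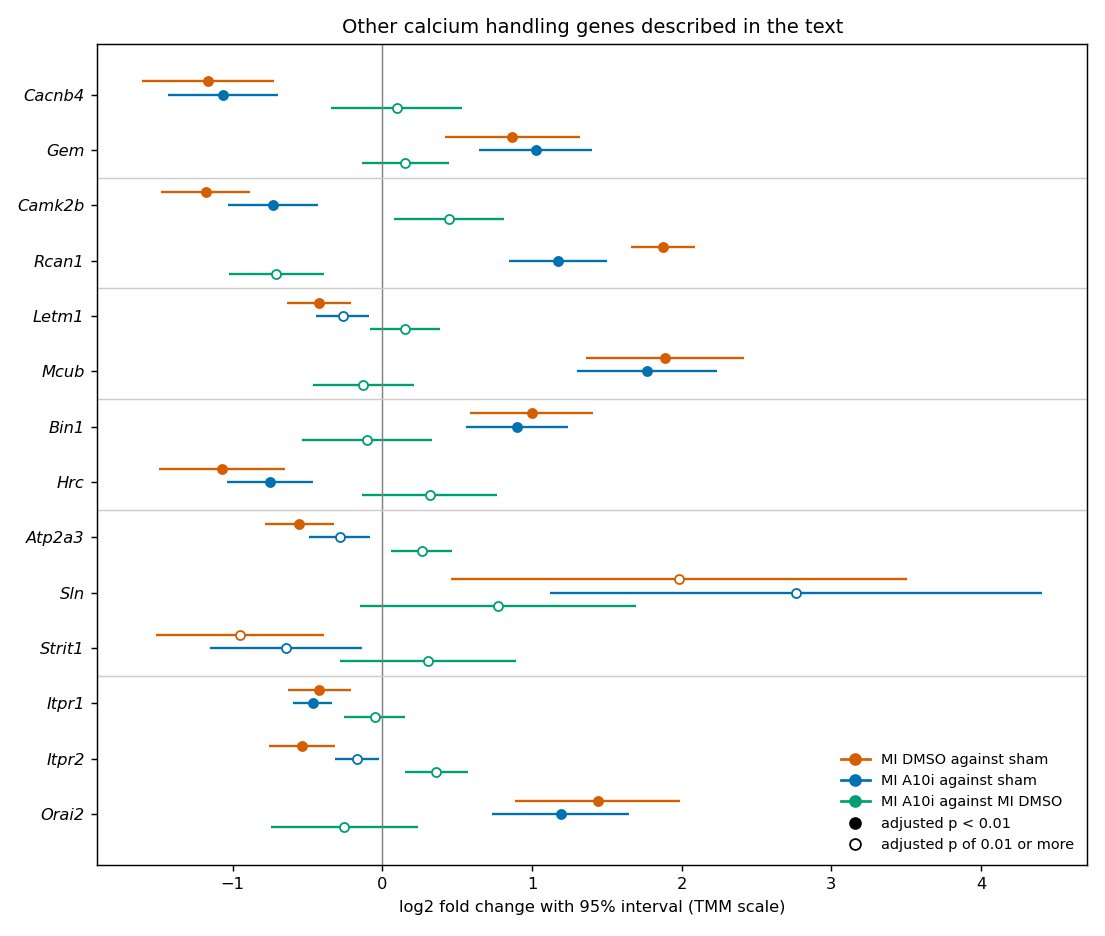
Log2 fold changes (TMM scale) with 95% intervals of the other calcium handling genes described in the text, grouped by list and coloured by comparison; filled points have an edgeR adjusted p under 0.01. Rcan1 and Mcub lie farthest to the right among filled points, at 1.88 and 1.89 with DMSO, and no point is filled for A10i against DMSO.

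Over the 11 hearts the 10 genes varied together only in part. Of 45 pairs the median Pearson r of log2 CPM was 0.70, with a range of -0.77 to 0.94, and the 9 negative pairs were those of Slc8a1 with each other gene. With each group centred on its own mean the median was 0.43 and the range -0.53 to 0.92. Of 4870 well-expressed genes, those closest to the mean of the 10 were Hibadh (r = 0.99), Echs1, Fh1, Chpt1 and Gm6652 over 11 hearts, and Hibadh, Echs1, Ndufa9, Phyh and Sdhc after centring. The points share library, depth and cell makeup, so these r are descriptions.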

How the data were processed

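Poly(A) RNA of 11 hearts was sequenced from strand-specific libraries. Per the labels and the study's methods, the authors demultiplexed reads with bcl2fastq 2.20.0, aligned them to mm10 with GSNAP and made the deposited counts per gene with featureCounts 2.0.1 on an Ensembl annotation. The strand setting of the counting is not given in the sources used here. Of 55513 identifiers, 55154 had a symbol in the annotation used here. Groups were compared pairwise, each fit holding only its own libraries, with edgeR 4.0.16 (filterByExpr, TMM factors, robust two-sided quasi-likelihood F-test, R 4.3.3, limma 3.58.1) and Benjamini-Hochberg adjustment over all genes tested. A second fit replaced the TMM factors by the mean log2 level of 10 sarcomere genes. CPM per kilobase used the deposited exon lengths, which join all annotated exons of a gene. The code was tested on simulated data. Alternatives were DESeq2 1.42.0, other scaling, no filter, 1 joint fit, a second reference and each library left out. In each of 7 lists, the 2 largest called changes against sham were named, besides Sln and Strit1 (Gm34302 in the annotation), and 2 genes that this names are not reported here. The 10 genes and the lists were chosen with earlier results of these data known.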

Additional observations from a re-analysis of the deposited data

How the results depend on the processing

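No paired analysis was possible because the labels give no replicate numbers shared between groups. With an adjusted p under 0.05 the genes called lower went from 3 to 7 (DMSO against sham) and from 1 to 5 (A10i against sham), while all genes called lower went from 1643 to 3145 and from 1546 to 2984. On the sarcomere scale the genes lower went from 0 to 1 (A10i against sham). Library size alone gave 1 higher and 1 lower with DMSO and 1 higher with A10i, and turned Cacna1c to 0.081 and 0.074 against sham and to -0.0065 between ligated groups, and Casq2 to 0.0063 with A10i. For A10i against sham, 2 were lower with no filter, 6 with DESeq2 and 0 in the fit of all 11 libraries, where the 1 call on the sarcomere scale also went to 0. The counts of all genes called in that comparison under these settings are not given here, so these calls cannot be set against them. For DMSO against sham, all genes called lower were 1872 with no filter, 2186 with DESeq2 and 1911 in the joint fit, in place of 1643. The second cardiomyocyte reference, whose fall raised every gene on its scale, gave 4 higher and 0 lower with DMSO and 4 higher with A10i. No share of all genes called is given for it here, so these counts cannot be set beside one. That reference turned Cacnb2 to 0.31, Ryr2 to 0.17, Jph2 to 0.39 and Pln to 0.10 with DMSO, and Cacnb2 to 0.036, Atp2a2 to 0.10 and Pln to 0.10 with A10i. Between the ligated groups it turned Casq2 to -0.057, Trdn to -0.13, Jph2 to -0.089, Pln to -0.0014 and Camk2d to -0.11. The causes were not tested.

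With each library left out in turn, 0 to 4 genes were lower in both comparisons with sham. Of all genes, 565 to 1763 were called lower with DMSO and 543 to 1821 with A10i, the fewest without a sham mouse. On the sarcomere scale 0 to 1 were higher in both, and 1 to 1 (DMSO) and 0 to 2 (A10i) lower. Changes of sign came in small values. On the sarcomere scale against sham, Casq2 ran from -0.019 to 0.12, Trdn from -0.018 to 0.12 and Jph2 from -0.054 to 0.048 with DMSO, and Ryr2 from -0.026 to 0.061 with A10i. Between the ligated groups Cacna1c ran from -0.10 to 0.13, Cacnb2 from -0.20 to 0.032, Trdn from -0.0088 to 0.15 and Jph2 from -0.0054 to 0.22, and on the sarcomere scale Cacna1c from -0.16 to 0.13, Trdn from -0.019 to 0.12 and Camk2d from -0.013 to 0.079. No gene of the 10 was called between the ligated groups under any alternative run. Over these alternatives, 24 values passed the threshold in use that had not, some of them only because it was loosened to 0.05. The values that no longer passed were 5, and with a library left out the numbers were 8 and 19. The number of hearts limits the precision, and the part of depth in the spread was not tested.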
